A study of Homo sapiens with 6 samples.

Results

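In RNA from mitochondria of HepG2 cells, 190 nuclear protein-coding genes had 0 counts in both libraries from cells given 100 µM GenX and 10 or more counts summed over both libraries from cells given 10 µM. They were chosen by exactly those values, so their absence at 100 µM and their minimum at 10 µM are properties of the choice and not findings. They make up 0.963% of the 19724 nuclear protein-coding genes in the tables. HepG2 is a human liver carcinoma line of epithelial cells, and GenX is a short-chain perfluorinated ether acid used in making fluoropolymers. Cells labelled wild type were exposed for 48 h to 0, 10 or 100 µM GenX, the 0 µM control receiving only the solvent DMSO. Each dose had 2 libraries, 6 in all. Mitochondria were isolated, and ribosomal RNA was removed from their total RNA before stranded libraries were made. The labels put all 6 libraries in 1 batch and do not state if replicates were grown as separate cultures, so any p-value measures only the spread between these libraries, which may be technical.

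The mitochondrial genome encodes a small set of proteins of the respiratory chain, with transfer and ribosomal RNAs. All other mitochondrial proteins, and all 190 genes described here, are encoded in the nucleus, transcribed there and translated on cytosolic ribosomes. A mitochondrial isolate can hold nuclear transcripts that sit at the outer membrane as well as RNA of other parts of the cell carried along in the preparation. Hepatocyte-derived cells are known for making plasma proteins, lipoproteins and drug-metabolising enzymes.

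Depth set what a count of 0 could show. The 10 µM libraries held 43556 and 29350 counts, the controls 240683 and 60854, and the 100 µM libraries 2141282 and 1338397, so the pooled 100 µM data were 47.7 times as deep as the pooled 10 µM data. Over both libraries of a dose, 10 counts at 10 µM correspond to 137 CPM (counts per 1000000), whereas a count of 0 allows up to 3 counts, or 0.862 CPM at 100 µM, 9.95 CPM in the controls and 41.1 CPM at 10 µM. These limits and all intervals below cover counting error only. The 10 µM libraries also stood apart in composition. Mitochondrial DNA genes took 43.7% and 61.1% of their counts, against 4.35% and 10.4% in control libraries and 3.58% and 3.32% at 100 µM. The nuclear RNA MALAT1 took 0.0390% and 0.0443% at 10 µM, against 13.5% and 4.61% in control libraries and 2.88% and 2.60% at 100 µM. The 19 hepatocyte markers together took 0.0436% and 0.0443% at 10 µM, with 10 of the 19 at 0 in both of these libraries (among them AFP, APOC3, APOH and HNF4A), against 0.626% and 1.68% in control libraries and 1.19% and 1.16% at 100 µM. These shares set the 10 µM libraries apart from both the controls and the 100 µM libraries. They did not follow the order of doses, and their part in the results was not tested. Fewer cells and less RNA per cell cannot be told apart in these bulk libraries.

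Coding sequence is shown here for 4 genes because the genes counted in both 10 µM libraries were richer in G and C at the median than those counted in 1. The genes were picked as examples after their values were seen and are not all typical. Transcript GC content was 43.6% in SPINK5 and 34.3% in DNAJB14, below the lower quartile (46.1%) of the genes counted in 1 library. It was 66.4% in CDH22, above the upper quartile (63.3%) of those counted in both, and 57.3% in KCNK3, below their median. The stretches thus show a wider gap than the group medians, 60.03% for both libraries and 55.0% for 1. Each line gives the central 120 bases of the longest coding exon segment of a GENCODE v29 transcript on GRCh38, 5′ to 3′ on the coding strand, with every CG dinucleotide in capitals. The potassium channel gene KCNK3 (chr2:26728056-26728175, plus strand) and the cadherin gene CDH22 (chr20:46174734-46174853, minus strand) had counts in both 10 µM libraries. SPINK5 (chr5:148131264-148131383, plus strand), which encodes a skin protease inhibitor, and DNAJB14 (chr4:99908744-99908863, minus strand), which encodes a membrane co-chaperone of the endoplasmic reticulum, had counts only in the first.
KCNK3: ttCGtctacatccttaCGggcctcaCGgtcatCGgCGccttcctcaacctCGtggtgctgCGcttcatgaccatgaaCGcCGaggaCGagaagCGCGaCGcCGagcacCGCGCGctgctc
CDH22: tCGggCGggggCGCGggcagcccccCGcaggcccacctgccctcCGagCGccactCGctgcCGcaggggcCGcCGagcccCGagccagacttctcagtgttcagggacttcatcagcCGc
SPINK5: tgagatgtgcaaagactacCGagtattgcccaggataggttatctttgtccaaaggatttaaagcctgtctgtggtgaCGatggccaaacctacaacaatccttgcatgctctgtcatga
DNAJB14: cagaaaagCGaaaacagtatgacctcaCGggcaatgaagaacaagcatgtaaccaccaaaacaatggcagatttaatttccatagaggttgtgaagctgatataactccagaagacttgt
In the stretches from KCNK3 and CDH22 64.2% and 75.8% of bases were G or C, with 17 and 13 CG dinucleotides. In those from SPINK5 and DNAJB14 the shares were 45.0% and 40.0%, with 2 CG dinucleotides each.

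The 190 genes gathered 2576 counts in the first 10 µM library and 866 in the second. That was 5.91% (exact 95% binomial interval 5.69 to 6.14%) and 2.95% (2.76 to 3.15%) of all counts there. The same genes took 102 counts, or 0.0424% (0.0346 to 0.0514%), in control library 1 and 90 counts, or 0.148% (0.119 to 0.182%), in control library 2. The controls' shares did not overlap with those at 10 µM, but the 10 µM counts had chosen the genes. The counts were thinly spread. The median gene had 14 counts over both 10 µM libraries and the highest had 72, and the 10 genes with the most counts held 15.2% of the 3442. Only 6 genes had 50 or more, 49 had 20 to 49, and 135 had 10 to 19, of which 24 had exactly 10.

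**Figure D1:**
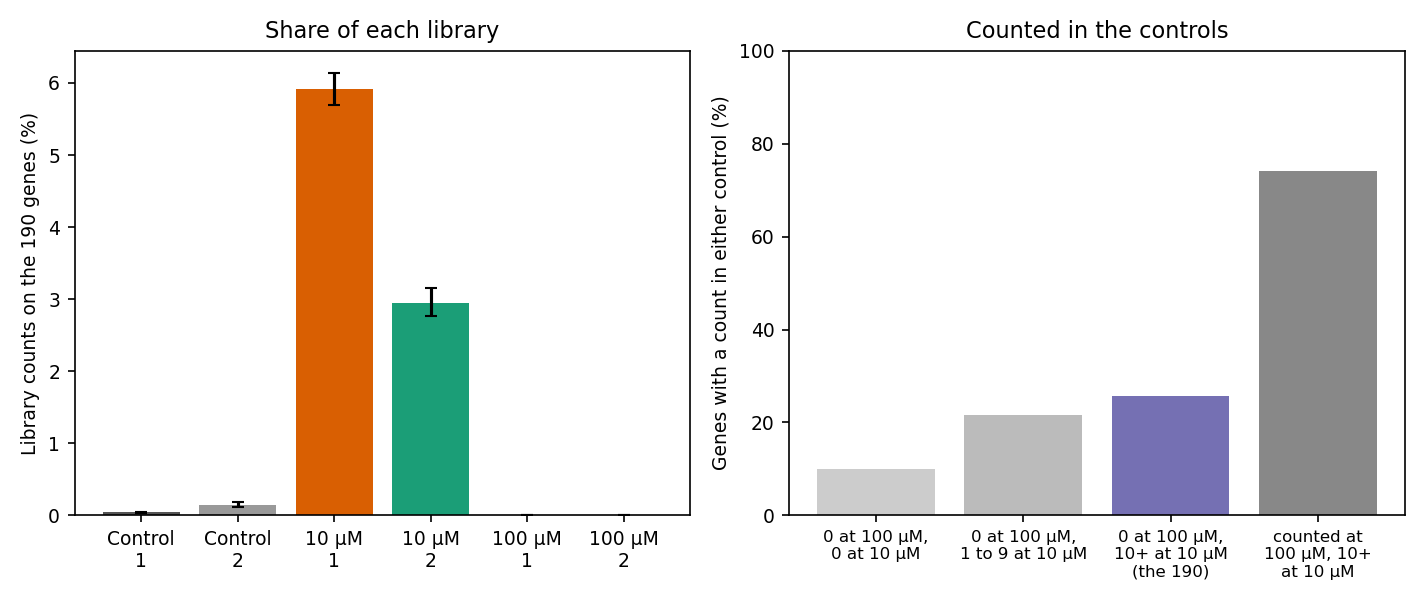
Left, percent of each library's counts that fell on the 190 genes, with exact 95% binomial intervals as error bars (counting error only); right, percent of nuclear protein-coding genes with a count in either control, by their counts at 10 and 100 µM. The share is 5.91% and 2.95% in the 10 µM libraries and at most 0.148% in a control, and 25.8% of the 190 genes have a control count.

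The 10 µM libraries rarely counted the same gene. Of the 190 genes, 118 had counts only in library 1, 39 only in library 2, and 33 (17.4%) in both. Of the 662 nuclear protein-coding genes with 10 or more counts at 10 µM that were also counted at 100 µM, 257 (38.8%) had counts in both 10 µM libraries. A gene with many counts in one library could have none in the other. GDF7, which encodes a growth differentiation factor of the BMP family, had 72 counts in library 1 and 0 in library 2. RECQL5, a DNA helicase of the RecQ family, had 66 and 0. ALS2CL had 62 and 0, and ALG10B, a glucosyltransferase of N-glycan assembly, had 50 and 0. In the other direction the forkhead transcription factor gene FOXI2 had 0 and 26. For the 3 genes GDF7, ALS2CL and ALG10B both controls were also at 0, and RECQL5 had 1 count in control library 1. All of these counts thus rest on 1 library of 6, apart from that single count. The gene KCNT1, encoding a sodium-activated potassium channel, was counted in both 10 µM libraries but very unequally, with 4 and 68 counts.

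**Figure D2:**
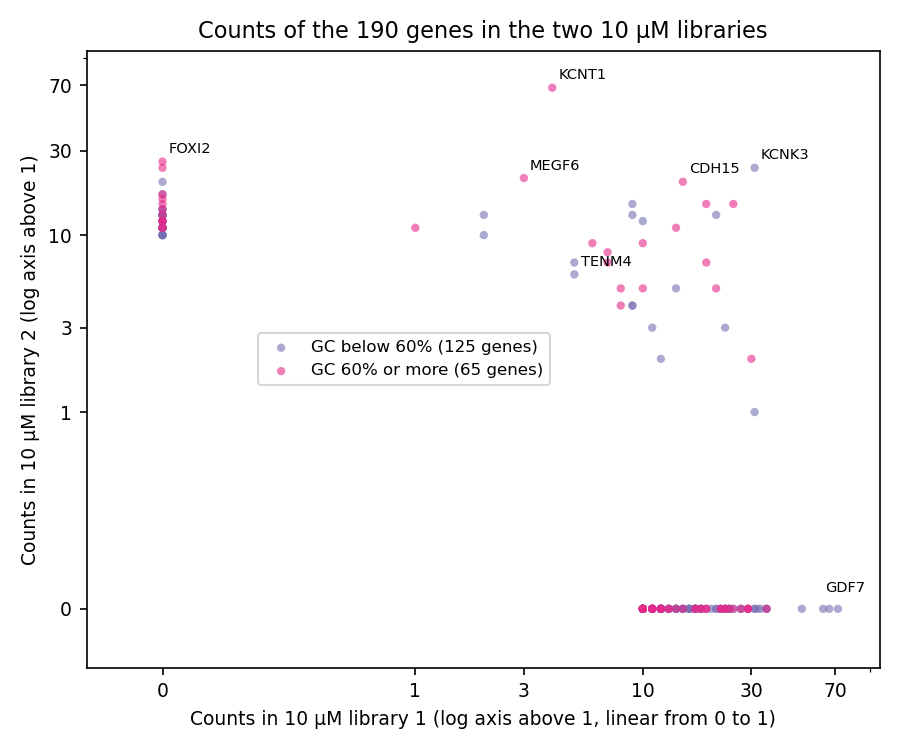
Counts of each of the 190 genes in the first (horizontal) and second (vertical) 10 µM library, both axes logarithmic above 1 count and linear from 0 to 1, coloured by GC content of the longest transcript. Most points lie on an axis, 118 with a count only in library 1 and 39 only in library 2.

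The 33 genes found in both libraries include those with the most even counts. Library 1 held 59.7% of all counts at 10 µM, and for 23 of the 33 genes the exact 95% interval of the gene's own share in library 1 included that value. The other 10 lay outside it, 4 above and 6 below, and the shares ran from 5.56% for KCNT1 to 96.9% for the protocadherin PCDH7 (31 and 1 counts). KCNK3, a potassium leak channel that sets resting membrane potential, had 31 and 24 counts at 10 µM, 0 and 0 in control libraries and 0 and 0 at 100 µM. That is 754 CPM pooled over both 10 µM libraries, 75.8-fold the limit of the controls and 875-fold that at 100 µM. These folds take the 10 µM counts as they stand, without their own error. The counts at 10 and 100 µM had also chosen the gene. ACE, angiotensin-converting enzyme, had 25 and 15 counts at 10 µM and 0 in the other 4 libraries, or 55.1-fold the controls' limit. CDH15, or M-cadherin of muscle precursors, had 15 and 20 counts at 10 µM, with 3 and 0 among control counts. CDH22, a cadherin of the brain, had 19 and 15 at 10 µM and 0 and 1 in the controls. The dipeptidase gene DPEP2 had 21 and 13 at 10 µM and 0 and 4 in the controls. In each of these 5 genes both 10 µM libraries lay above both controls, also in CPM. Weaker evenness was seen in BEGAIN, a synaptic scaffold gene (21 and 5 at 10 µM, 3 and 0 in the controls). So it was in NKPD1 (19 and 7, controls at 0) and in TECTA, encoding a protein of the inner ear's tectorial membrane (23 and 3, controls at 0). Of these 3 genes, only NKPD1 had an interval that included 59.7%. GRM4, a metabotropic glutamate receptor, had 14 and 11 at 10 µM and 0 and 1 in the controls. Of the 190 genes, 27 had 3 or more counts in each 10 µM library, and 17 of those had no control count.

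**Figure D3:**
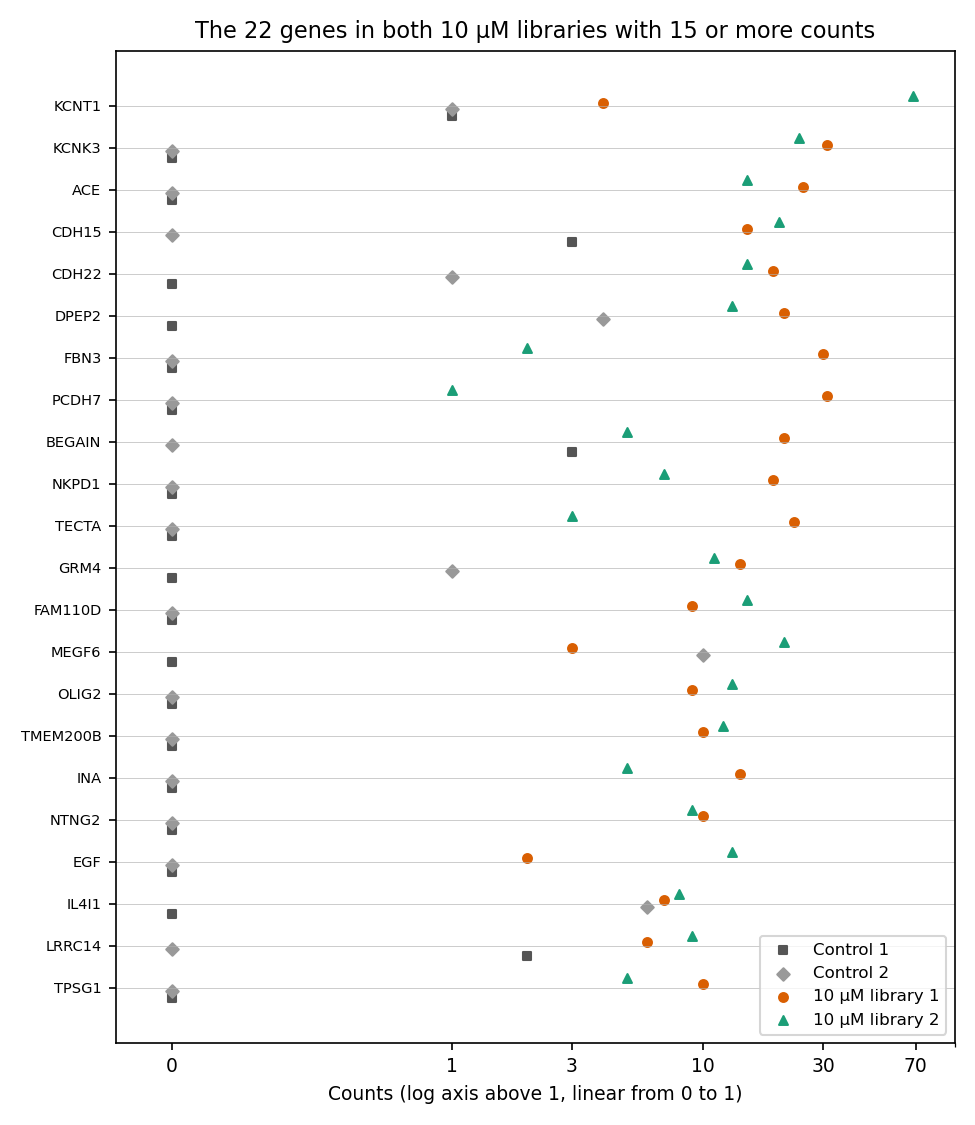
Counts in the controls and at 10 µM of the 22 genes that had a count in both 10 µM libraries and 15 or more over both, on an axis that is logarithmic above 1 count and linear from 0 to 1, with small vertical offsets to separate symbols. Controls lie at or near 0 for most genes, and MEGF6 has the highest control count shown, 10 in control library 2.

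In the controls 141 of the 190 genes had no count and 49 (25.8%) had at least 1. The pooled controls held about as many of the genes in library 1 (28) as in library 2 (27), although library 1 was the deeper, and only 6 genes had a count in both. Of the 49 genes, 21 had a single count and 12 had 5 or more. Among nuclear protein-coding genes at 0 at 100 µM, the share with a control count was 9.93% of the 6664 genes at 0 at 10 µM too and 21.7% of the 885 genes with 1 to 9 counts at 10 µM. Of the 662 genes with 10 or more counts at 10 µM that were counted at 100 µM, 74.2% had a control count. The 190 genes therefore lay near the genes with fewer 10 µM counts and below those counted at 100 µM. DNAJB14 had the most control counts, 26 in library 1 and 0 in library 2, beside 25 and 0 at 10 µM. MLST8, a subunit shared by the mTOR complexes, had 15 and 7 in the controls, beside 18 and 0 at 10 µM. CILP2, a cartilage matrix protein gene, had 0 and 15 in the controls, beside 24 and 0 at 10 µM. MEGF6 had 0 and 10 in the controls, beside 3 and 21 at 10 µM. In these 4 genes the groups overlapped. TENM4, a teneurin of synaptic adhesion, had 6 and 5 counts in control libraries and 5 and 6 at 10 µM. These are 24.9 and 82.2 CPM in the controls, beside 115 and 204 CPM at 10 µM, against under 0.862 CPM pooled at 100 µM. TENM4 thus had counts in every library except those at 100 µM, as had KCNT1 and RBFOX3, which had 1 count in each control.

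The comparison of 10 µM with control was fitted over all genes by edgeR's quasi-likelihood test, and 0.597% of the 3180 genes tested were called at an adjusted p of 0.05 (7 higher and 12 lower at 10 µM, or 0.22% higher). The low-count filter left 27 of the 190 genes, and 0 of them were called, which is near the share over all genes. Without adjustment, 18 of the 27 had a p under 0.05, as did 895 of all 3180 genes, 186 of them higher at 10 µM. Since the genes were chosen for counts at 10 µM, the direction of these differences was given by the choice. Their p-values and calls, in every fit given here, are not independent of that choice either. Of the 27 tested, 22 were counted in both 10 µM libraries and 5 in 1 of them. A control count was present in 16 of the 27, and their log2 fold changes ran from 1.17 (MLST8) to 6.83 (KCNT1). The other 11 had counts at 10 µM alone, so they passed the filter on the counts that had chosen them. A control count did not make passing independent of the choice. KCNT1, CDH22, GRM4 and CDH15 had at most 16.4 CPM in a control library and 91.8 CPM or more in each 10 µM library. These genes too passed the filter on their 10 µM counts. Over all 3180 genes the median log2 fold change was -3.18 and 27.3% were positive, so the fit was not centred on 0. The smallest adjusted p among the 27 in edgeR's quasi-likelihood test was 0.120, for KCNK3. It was 0.142 for KCNT1 and 0.149 for CDH22, GRM4 and CDH15, which had log2 fold changes of 6.34, 5.92 and 5.51. The same test gave TENM4 a log2 fold change of 1.48 with an adjusted p of 0.458. DESeq2's Wald test on the same 3180 genes gave an adjusted p to 1762 of them and called 554 (31.4%) in either direction. Of these 168 were higher at 10 µM, or 9.53% of the 1762, and they included 18 of the 27. All 11 tested genes without a control count were among the 18. With poscounts size factors it called 625 of 1824 genes (34.3%), of which 150 were higher (8.22%), again with 18 of the 27. When all genes with a count were tested in DESeq2, 5169 received an adjusted p, all 190 among them, and 15 (0.29%) were called in either direction. The 3 called higher (0.058%) were GDF7, ALS2CL and ALG10B, each with counts in 1 library alone. The call of these genes therefore differed with the tool and the filter. Leaving out a control library let 96 of the 190 pass the filter. Without control library 2 edgeR's quasi-likelihood test called 51 of 6870 genes higher (0.742%), 8 of the 96 among them. Without control library 1 it called 27 of 2888 higher (0.935%), and KCNK3 was the only one of the 96. In either direction 12.5% of genes were called in both fits.

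By known function, 41 of the 190 genes act in nerve cell signalling and adhesion, 24 in epithelia, muscle, matrix or hormone biology, and 20 in embryonic patterning and differentiation. Smaller groups were 18 genes for the upkeep of most cells, 15 of immunity and inflammation, 10 of testis and sperm, 9 of liver enzymes and plasma proteins, and 6 of the eye, ear and sense of smell, and 47 were not assigned. These groups were written by hand once the genes were known, so their sizes are a description. Genes named in the next paragraphs as examples were chosen after their values were seen, unless they were already named above.

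**Figure D4:**
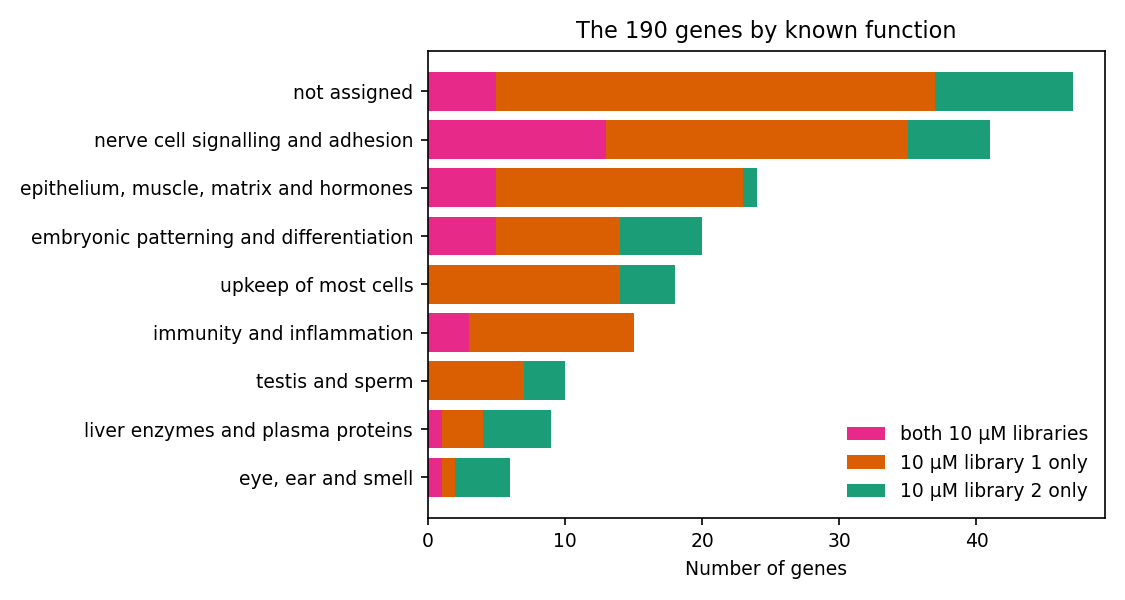
Number of the 190 genes in each function group, split by whether the gene was counted in both 10 µM libraries, only in library 1 or only in library 2. The nerve group has the most genes found in both libraries (13 of 41), and the upkeep and testis groups have 0.

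The nerve group took 566 and 249 counts at 10 µM, with 16 and 26 among control counts. It held 13 of the 33 genes counted in both libraries, and 13 of its 41 genes had a control count. Its channels and receptors included KCNK3, KCNT1 and GRM4, with the nicotinic acetylcholine receptor subunit CHRNB2 (33 and 0 at 10 µM), the T-type calcium channel CACNA1I (12 and 0) and the sensory-neuron sodium channel SCN10A (10 and 0). Enzymes of transmitter synthesis were counted too. GAD2, which makes GABA from glutamate, had 12 and 2 counts, its relative GAD1 had 10 and 0, and TH, the rate-limiting enzyme of catecholamine synthesis, had 0 and 15. Genes of the synapse and axon included SGIP1 and SNPH, the latter encoding syntaphilin, which anchors mitochondria in axons, each with 35 and 0 counts. The neurofilament protein gene INA had 14 and 5, and NTNG2, a netrin-G of axon guidance, had 10 and 9. The neuronal nuclear marker RBFOX3 had 2 and 10 counts with 1 in each control, and the synaptic vesicle gene SYN1 had 0 and 12 with none in the controls. Both belong to a list of 10 neuron markers. That list held 10 and 41 counts (0.0230% and 0.140%) at 10 µM, 3 and 5 (0.0012% and 0.0082%) in the controls, and 139 and 2 (0.0065% and 0.0001%) at 100 µM. RBFOX3 and SYN1, chosen for their 10 µM counts, gave 24 of the 51 counts at 10 µM. The other 8 markers had 8 and 19 there, against 2 and 4 in control libraries and 139 and 2 at 100 µM. The markers MAP2, SNAP25 and STMN2 were among the 7 at 0 in both 10 µM libraries. All of the counts of these 8 at 10 µM came from GRIN1, a glutamate receptor subunit, which missed the choice by 1 count at 100 µM.

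Classes drawn by symbol from all nuclear protein-coding genes gave a background for such groups. Of 98 protocadherin and cadherin genes, 5 (5.10%) were among the 190, against 0.963% of all nuclear protein-coding genes. Of 278 ion channel and transmitter receptor genes 8 (2.88%) were, of 108 matrix genes 4 (3.70%), and of 111 synaptic adhesion and scaffold genes 3 (2.70%). The share was near that of all genes for 567 zinc finger genes (5, or 0.882%). It was lower for 431 solute and ABC transporters (2, or 0.464%) and 404 olfactory and taste receptors (OR2M4 alone, or 0.248%). Relative to genes at 0 at 100 µM, of which the 190 are 2.46%, the shares were 6.67% for cadherins, 4.79% for channels and receptors and 10.3% for matrix genes. They were 5.88% for synaptic genes, 1.94% for zinc finger genes, 1.36% for transporters and 0.253% for olfactory and taste receptors. These shares rest on few genes, and differences between classes in length and GC content were not taken into account. The 5 cadherins were CDH15, CDH22, PCDH7, PCDH10 (29 and 0 counts) and PCDHB13 (18 and 0), of which the first 3 were counted in both libraries.

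Embryonic patterning genes took 258 and 126 counts at 10 µM, with 10 and 1 among control counts, and 3 of the 20 had a control count. Besides GDF7 and FOXI2 the group held AMER2, a negative regulator of Wnt signalling (32 and 0 at 10 µM), TBX1, a T-box factor of pharyngeal development (23 and 0), and GLI2, an effector of Hedgehog signalling (18 and 0). OLIG2, the transcription factor of oligodendrocyte and motor neuron precursors, was one of 5 counted in both libraries, with 9 and 13 counts and none in the controls. The homeobox genes NKX2-4 (8 and 4), EVX2 (0 and 13), HOXA2 (0 and 10) and EMX2 (10 and 0) were all at 0 in the controls. Most of the group had no control count and were counted in 1 of the 2 libraries at 10 µM.

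Genes of epithelium, muscle, matrix and hormones took 398 and 74 counts at 10 µM, with 5 and 26 among control counts, where CILP2 and MEGF6 gave 25 of the 26. FBN3, a fibrillin of extracellular microfibrils, had 30 and 2 counts. The mucin genes MUC4 and MUC2 had 23 and 0 and 11 and 0. Of the 24 genes 18 were counted only in library 1. Immune genes took 269 and 26 counts at 10 µM, with 5 and 11 among control counts, and 12 of the 15 were counted only in library 1. TRAF1, an adaptor of TNF receptors, had 35 and 0, and the neighbouring class II genes HLA-DPA1 and HLA-DPB1 had 27 and 0 and 23 and 0. The 8 blood and immune markers had 5 and 0 counts at 10 µM, 0 and 7 in control libraries and 351 and 98 at 100 µM, and 7 of the 8 were at 0 in both 10 µM libraries.

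Other groups were smaller. Of the 6 genes of the senses, GNAT1, the transducin subunit of rods, had 0 and 20 counts, and OR2M4, an olfactory receptor, 0 and 14. The 10 testis genes took 86 and 35 counts at 10 µM, with 0 and 7 among control counts, all 7 from the axonemal dynein DNAH8, and 0 of the 10 were counted in both 10 µM libraries. ATP1A4, the sodium pump subunit of sperm, led them with 17 and 0.

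The 9 liver genes took 57 and 72 counts at 10 µM, with 0 and 2 among control counts. F11, coagulation factor XI, had 22 and 0 counts, and CYP2D6, a drug-metabolising cytochrome P450, had 0 and 16. TFR2, the iron-sensing transferrin receptor of hepatocytes, was the 1 gene of the group counted in both libraries, with 1 and 11. ADH1B, an alcohol dehydrogenase, had 0 and 10. These 4 genes had no control count. None of the 19 hepatocyte markers was among the 190 genes.

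The 18 genes for the upkeep of most cells took 338 and 54 counts at 10 µM, with 51 and 11 among control counts, and 9 of the 18 had a control count. DNAJB14 and MLST8 gave 41 of the 51 in control library 1. None of the 18 was counted in both 10 µM libraries. Examples with no control count were ALG10B, the kinase adaptor TAB1 (29 and 0) and the histone chaperone subunit CHAF1B (0 and 14). The DNA end-joining factor PAXX had 0 and 11 at 10 µM and 2 and 0 in the controls.

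The exonic length of the 190 genes, as listed in the tables, had a median of 4955 bases (interquartile range 2963 to 7838), from 936 for OR2M4 to 27961 for TCF4. The median was 2654 for the 6664 genes at 0 at both doses and 5820 for the 662 counted at 100 µM with 10 or more counts at 10 µM. It was 6136 for the 33 genes counted in both 10 µM libraries and 4456 for the 157 counted in 1. Among genes at 0 at 100 µM, the share that reached 10 counts at 10 µM rose with length from 0.292% below 1000 bases to 6.88% from 8000 to under 16000 bases and 13.95% (6 of 43 genes) above that. Counts per kilobase did not rise with length in the same way. In 10 µM library 1 they ran from 0.105 to 0.178 and in library 2 from 0.0434 to 0.0761 over the length classes, and the lowest value in both came from the longest genes.

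The 33 genes counted in both 10 µM libraries had a higher median GC content than the rest, given here as a description with no test. GC content was measured on the longest transcript of each gene. The median over the 33 genes was 60.03%, with 17 (51.5%) at 60% or more, and over the 157 counted in 1 library it was 55.0%, with 48 (30.6%) at 60% or more. CG dinucleotides numbered 48.2 and 27.7 per kilobase at the median. The median GC was 56.2% for all 190 genes, 48.8% for genes at 0 at both doses, 57.0% for the 662 genes also counted at 100 µM and 49.0% for all nuclear protein-coding genes. It was 51.7% for the 885 genes at 0 at 100 µM with 1 to 9 counts at 10 µM, so a high median was shared with the 662 genes more than with these. Not every gene followed it, as ALG10B had a GC content of 33.3%, DNAJB14 34.3% and PCDH7 41.5%.

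Over the 7715 genes at 0 at 100 µM with a transcript sequence, the level per kilobase was compared between GC classes. It was higher in the top GC class than in the bottom one in both 10 µM and both control libraries. The rise was not steady. In 10 µM library 1 the level fell from 2.95 at 40% to under 45% GC to 2.10 at 45% to under 50%. In 10 µM library 2 it was 0.812 under 40% GC and 0.728 at 40% to under 45%. The 190 genes hold 54.8% of the 10 µM counts on all genes at 0 at 100 µM, so this level is not independent of the choice. From genes under 40% GC to those at 65% or more, it went from 1.92 to 13.0 CPM per kilobase in 10 µM library 1 and from 0.812 to 10.9 in library 2. In the controls it went from 0.449 to 0.678 in library 1 and from 0.319 to 2.68 in library 2. The lowest class in control library 1 was 50% to under 55% GC, at 0.233. The share of these genes with any count was also higher in the top GC class than in the bottom one in all 4 libraries. It went from 9.05% to 21.3% and from 3.14% to 13.3% at 10 µM, and from 5.05% to 10.8% and from 3.90% to 9.57% in the controls. The share of these genes that are among the 190 was 1.24% under 40% GC, 6.08% from 60% to under 65% and 4.94% at 65% or more. Over all nuclear protein-coding genes the share with any count rose from 15.4% to 29.4% and from 11.3% to 20.6% between the same GC classes in the 10 µM libraries. It went from 36.2% to 36.6% in control library 1 and from 19.5% to 27.4% in control library 2. In the 100 µM libraries it was lower at high GC (57.4% against 49.5% and 51.5% against 44.5%). The libraries of different doses also differ in depth and in the share of mitochondrial DNA counts, and the part of these in the relation was not tested.

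**Figure D5:**
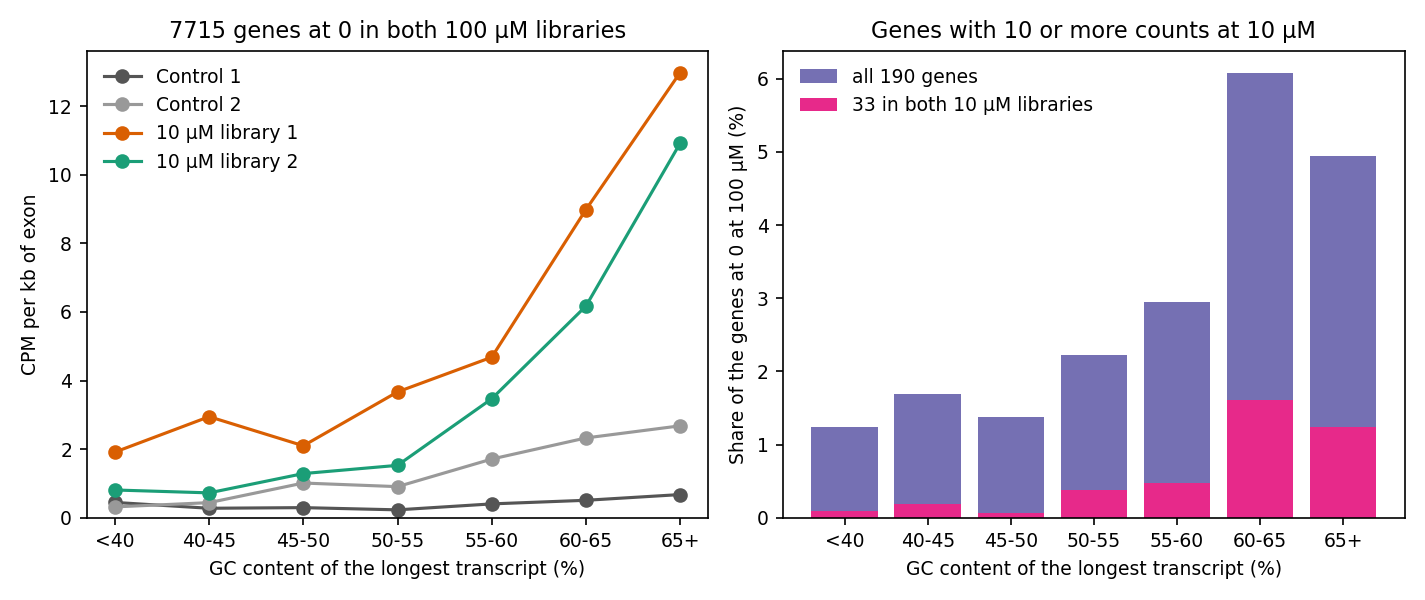
Left, CPM per kilobase of exon on the 7715 nuclear protein-coding genes at 0 at 100 µM, by GC class of the longest transcript; right, percent of those genes in each GC class that are among the 190 (with the share of the 33 counted in both 10 µM libraries drawn in front). All 4 lines are higher in the top GC class than in the bottom one. The 10 µM lines go from 1.92 to 13.0 and from 0.812 to 10.9, and the control lines from 0.449 to 0.678 and from 0.319 to 2.68.

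The 190 genes lay on 23 chromosomes. Chromosome 1 held 23 of them and chromosome 2 held 19. Relative to genes at 0 at 100 µM, the share was 6.62% on chromosome 22 (10 of 151), 5.85% on chromosome 20 (10 of 171), 4.97% on chromosome 2 and 4.42% on chromosome 16 (11 of 249). It was 1.04% on chromosome 12 (4 of 386), 0.207% on chromosome X (SYN1, 1 of 484) and 0 of 38 on chromosome Y. Over the genes at 0 at 100 µM the median GC content was 57.0% on chromosome 22 and 57.6% on chromosome 16 but 46.6% on chromosome 12, and 48.0% on chromosome 2. Share and GC content did not always go together. Chromosome 19 had a median GC content of 56.5% with a share of 1.98% (12 of 607), and chromosome 18 had 43.3% with a share of 3.88%. Of the 10 genes on chromosome 22, 0 were counted in both 10 µM libraries. Within 100000 bases of each other there were 8 pairs of the 190 genes. In 4 pairs both genes were counted in the same 10 µM library, namely VANGL2 with SLAMF6, SPEM1 with SPEM2, ALS2CL with PRSS50, and HLA-DPA1 with HLA-DPB1, and in the other 4 they were not. On GRCh38 KCNK3 spans chr2:26692690-26733420, ACE chr17:63477061-63498380, CDH15 chr16:89171767-89195492 and CDH22 chr20:46173733-46308498.

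Exons overlapping another gene were found in 76 of the 190, but the shared part was under 10% of exonic length in 159, including 28 of the 33 counted in both libraries. It was over 50% in 4 genes, UGT1A3 (80.0%), CATSPERZ (68.1%), TIGD7 (62.4%) and FDXACB1 (53.3%), whose counts are uncertain. Counts of genes with near-identical relatives, such as ALG10B, CYP2D6, ACSM2A and USP41, are uncertain too, because the treatment of multiply mapped reads was not given in the sources used here.

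At the edges of the choice, 24 genes had 9 counts at 10 µM and 0 at 100 µM, of which 2 were counted in both 10 µM libraries and 8 had a control count. AKR7A3, with 0 and 9 counts, and CCDC158, with 7 and 2, are examples. On the other side, 55 genes reached 10 counts at 10 µM but had 1 count at 100 µM, of which 14 were counted in both 10 µM libraries and 23 had a control count. AATK, a kinase gene expressed in brain, had 29 and 47 counts at 10 µM, with 0 and 8 among control counts, and HSPG2, which encodes perlecan, had 0 and 40. A total of 97 genes had 1 to 3 counts at 100 µM, so 1 to 3 reads at the deepest dose decided whether a gene was counted among the 190.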

How the data were processed

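RNA of mitochondria isolated from HepG2 cells was measured in 6 libraries, and raw counts per gene were used as deposited by the authors, in tables of 57500 genes. Per the submitters' processing notes the tools were FastQC, STAR, featureCounts and DESeq2 with GRCh38. The sources used here do not give the annotation release, how strand was handled, or what was done with reads mapping to several genes, and each can change counts of overlapping or duplicated genes. No line lacked a gene name. Groups came from the sample titles.

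Symbols, gene types and transcript sequences came from GENCODE v29 by identifier. It held 56898 identifiers, and 0 of the other 602 met the count rule. Of the 190 genes chosen, 177 had the same start and end there. Shares carry exact (Clopper-Pearson) 95% intervals, and 0 counts were read as under 3 counts over a group. Folds against a group at 0 use that limit. Exon overlaps were found with bedtools 2.31.1, and other tables were made in Python 3.11.15 with pandas 2.3.3, numpy 2.4.6 and scipy 1.17.1, with plots in matplotlib 3.10.9.

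The comparison of 10 µM with control used edgeR 4.0.16 in R 4.3.3, with filterByExpr, TMM scaling, robust quasi-likelihood fits of group means over all 6 libraries, and two-sided tests with Benjamini-Hochberg adjustment at 0.05 over all genes tested. Replicate pairs differed by more than sampling noise (chi-square per degree of freedom 39.4, 12.9 and 35.2 in the controls, at 10 and at 100 µM). Each pair was fitted as 2 libraries. Such differences do not show if the replicates were grown as separate cultures. Alternatives were other scalings, filters and thresholds, DESeq2 1.42.0, a replicate block and leaving out each library. A subset with under 10% overlap, GC averaged over transcripts, DESeq2 with other size factors and DESeq2 on all genes with a count were chosen after seeing the data.

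Genes were named by rule: the 15 with the most counts at 10 µM, up to 10 with 3 or more counts in each 10 µM library, the 5 with the most control counts, and the highest gene of each function class, with up to 3 genes on each side of the choice. Others were named as examples after their values were seen, and some genes are not reported here. The genes, the classes and the lists were all chosen with earlier results of these data known.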

Additional observations from a re-analysis of the deposited data

Results flagged for a closer look

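Outside the protein-coding genes, 111 nuclear genes of other types also had 0 counts in both 100 µM libraries and 10 or more over both 10 µM libraries, a signal in rows that the comparisons above do not use. They were 33 lincRNA, 28 antisense, 17 processed pseudogene and 33 genes of other types. They held 1593 counts at 10 µM, against 51 among control counts, and 11 of the 111 were counted in both 10 µM libraries. The sense-intronic RNA AL121832.3 had 0 and 52 counts at 10 µM, with 2 and 4 in control libraries. HAGLR, an antisense RNA of the HOXD cluster, had 49 and 0 with none in the controls, and the pseudogene DUX4L26 had 16 and 14 with 1 and 4 in the controls. Counts of antisense and pseudogene rows cannot be told apart from those of their partners or parent genes here, because the strand setting and the treatment of multiply mapped reads were not given.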

How the results depend on the processing

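The choice of genes followed the threshold. A sum of 5 or more counts at 10 µM gave 429 genes (60 in both libraries, 98 with a control count), and 20 or more gave 55 (16 and 22). At least 3 counts in each 10 µM library left 27 (10 with a control count), and up to 3 counts at 100 µM gave 287 (57 and 95). Leaving out a 10 or 100 µM library gave 53 to 308 genes, 14 to 62 of them in both 10 µM libraries and 16 to 108 with a control count. The lowest values came without 10 µM library 1 and the highest without 100 µM library 1. Median exonic length stayed between 4203 and 5574 bases under these choices. GC averaged over transcripts gave a median of 57.6% for the 190 genes.

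Over all genes, edgeR's quasi-likelihood test called 7 genes with library sizes alone, 7 without the low-count filter and 4 to 861 when 1 library was left out (4 without 10 µM library 1, 9 without 10 µM library 2, 361 without control library 1, 861 without control library 2). DESeq2's Wald test called 554 (168 higher), or 625 with poscounts size factors (150 higher), and 15 (3 higher) on all genes with a count. Without control library 1 or 2, 27 and 51 of the calls were higher. Of the 190 genes, 18 were called higher by DESeq2 with either size factors, 3 by DESeq2 on all genes with a count, and 0 to 8 with 1 library left out. The cause was not tested. Calls on the 190 genes are not independent of their choice by 10 µM counts. DESeq2 size factors and library sizes alone raised the median log2 difference over the tested table by 0.51 and 0.53, and over the 27 genes by 0.50 and 0.39. With 1 library left out, log2 fold changes ran from -9.33 to 10.30 for CILP2, -9.03 to 10.36 for DNAJB14 and -9.23 to 1.65 for MLST8, the lowest without 10 µM library 1, where their 10 µM counts lie. Leaving out 1 library of a group assumes that the lone one varies like the others.

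With a replicate block edgeR's quasi-likelihood test called 75 genes and 0 of the 190. Deviations of same-numbered libraries correlated at -0.0183, -0.0299 and -0.0212 over 10741 genes, and with 2 numbers shared this gives no pairing. Depth limits the controls to 9.95 CPM and the 10 µM group to 41.1 CPM for a gene at 0.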
